A study of Homo sapiens with 20 samples.

Results

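The genes described here are 10 transcripts through which tumour cells restrain or engage immune cells. They are the PD-1 ligands CD274 (PD-L1) and PDCD1LG2 (PD-L2), the B7 family members CD276 (B7-H3), VTCN1 (B7-H4) and HHLA2, the nectin family ligands PVR (CD155) and NECTIN2 (CD112), the phagocytosis checkpoint CD47, the OX40 ligand TNFSF4 and the tryptophan-degrading enzyme IDO1. They were taken by symbol from a table of RNA-seq read counts with 24222 gene entries, and all 10 were found, 1 entry each. The counts come from 20 established human biliary tract cancer cell lines, grown in DMEM with serum and with no treatment, with 1 library per line. By site of the tumour, 3 lines were ampullary (SNU-478, SNU-869, TGBC18TKB), 7 came from the gallbladder (OCUG-1, NOZ, G415, Mz-ChA-2, TGBC2TKB, TGBC14TKB, SNU-308), 4 were intrahepatic (HuCCT1, HuH28, SNU-1079, TKKK) and 5 extrahepatic (EGI-1, SNU-1196, SNU-245, Sk-ChA-1, TFK-1). OZ carries both bile duct labels and was left out of the comparisons of sites. By origin, 7 lines were metastatic (G415, HuCCT1, NOZ, OCUG-1, OZ and Sk-ChA-1 from ascites, Mz-ChA-2 from liver) and 13 came from a primary tumour. A line is the unit of replication, so every spread below is a spread between lines, and tests describe these lines rather than repeat cultures of any of them.

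CD274 and PDCD1LG2 bind PD-1 on T cells and dampen signalling from the T cell receptor. Interferon gamma is the best known inducer of CD274 and of IDO1, acting through JAK kinases and the transcription factor IRF1. PVR and NECTIN2 are read by the inhibitory receptor TIGIT and the activating receptor CD226, CD47 by SIRPA on macrophages, and TNFSF4 by the costimulatory receptor OX40 (TNFRSF4). IDO1 opens the kynurenine pathway, whose products act on T cells and on the aryl hydrocarbon receptor.

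The promoter of CD274 is shown because the relation of these genes to interferon gamma targets is examined below. It is the RefSeq window of GRCh38.p14 at chr9:5450292-5450591, plus strand, with 250 bases before the start site and 50 bases from it on. Capitals mark matches on either strand to GAAANNGAAA, a repeated core of the interferon stimulated response element, and to TTCNNNGAA, the gamma activated site.
CD274: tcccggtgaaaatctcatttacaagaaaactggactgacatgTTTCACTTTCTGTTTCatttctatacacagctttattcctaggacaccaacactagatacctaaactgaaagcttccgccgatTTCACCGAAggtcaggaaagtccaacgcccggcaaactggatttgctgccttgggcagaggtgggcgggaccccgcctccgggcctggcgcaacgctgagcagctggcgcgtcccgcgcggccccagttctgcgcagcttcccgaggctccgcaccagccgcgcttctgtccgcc
With the start site as position 0, GAAANNGAAA matched at -208 to -199 and at -202 to -193, which overlap, and TTCNNNGAA at -125 to -117. Of the 35116 promoter windows of this length that were searched, which did not cover every gene, 3.57% held GAAANNGAAA and 7.66% held TTCNNNGAA. Windows of 8 of the 10 genes were searched. Those of PDCD1LG2 and IDO1 were not, so nothing is said here of motifs in their promoters. Apart from CD274, GAAANNGAAA was found in 1 of the 3 windows of HHLA2, at 40 to 49, and TTCNNNGAA in no window of the other 7 genes. Another motif, CAGGTG, the E-box of the ZEB and SNAI repressors of epithelial genes, occurred in 20.6% of the searched windows. Among these 8 genes it occurred only in that of PVR, at -187 to -182. A match is a description of the letters and not a binding site.

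Library totals lay between 10.47 M and 15.41 M counts, M standing for mega, and the median was 12.49 M. Levels are given as CPM, counts per M counts after TMM scaling of the library totals. Where a library held no count, up to 3 counts could have been missed, a floor of 0.206 to 0.294 CPM depending on the line, and values under that floor rest on 1 to 3 counts. Intervals on single values are exact Poisson 95% intervals, and intervals and floors cover counting error only. The labelled cell type was checked against 7 biliary epithelial markers, whose summed level was between 335 CPM in HuH28 and 13549 CPM in SNU-245. In HuH28, EPCAM was at 0.257 and KRT19 at 1.03 CPM, the lowest of all lines. The summed level of 6 T and NK cell markers was 0 to 14.7 CPM over all 20 lines, where the highest value was almost all CD3D in Mz-ChA-2 (14.0 CPM). Of 5 leukocyte and macrophage markers the sum was 1.16 to 211 CPM, the highest value being LAPTM5 in OZ, and the leukocyte gene PTPRC reached at most 1.32 CPM. Of 6 fibroblast markers the sum was 1.23 to 8315 CPM, highest in HuH28, and of 4 endothelial markers 0 to 56.2 CPM. The fibroblast sum in HuH28 was mostly COL1A1 (7970 CPM). DCN, PDGFRA and FAP were also highest there, at 49.0, 133 and 128 CPM. From a bulk library, fewer cells making a transcript and less of it per cell cannot be told apart.

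The 10 genes fell into a group present in every line and a group present in few. PVR, NECTIN2, CD47 and CD276 were above 20 CPM in all 20 lines. Per kb of merged exon, which allows levels of different genes to be set side by side, their medians over the lines were 50.6 (PVR), 41.8 (NECTIN2), 23.7 (CD47) and 23.5 (CD276) CPM per kb. CD274 followed with a median of 2.26 CPM per kb, and VTCN1, TNFSF4, PDCD1LG2 and HHLA2 lay at 0.266, 0.214, 0.0548 and 0.0384. The median of IDO1 was 0. The SD over lines on the log2 scale was 0.63 for CD276, smaller than in all but 27.6% of 16337 expressed genes, and 2.77 for VTCN1, larger than in 93.0% of them. The 3 highest lines held 96.6% of all CPM of IDO1 summed over the 20 lines and 92.2% of HHLA2, against 24.5% of CD276.

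**Figure D1:**
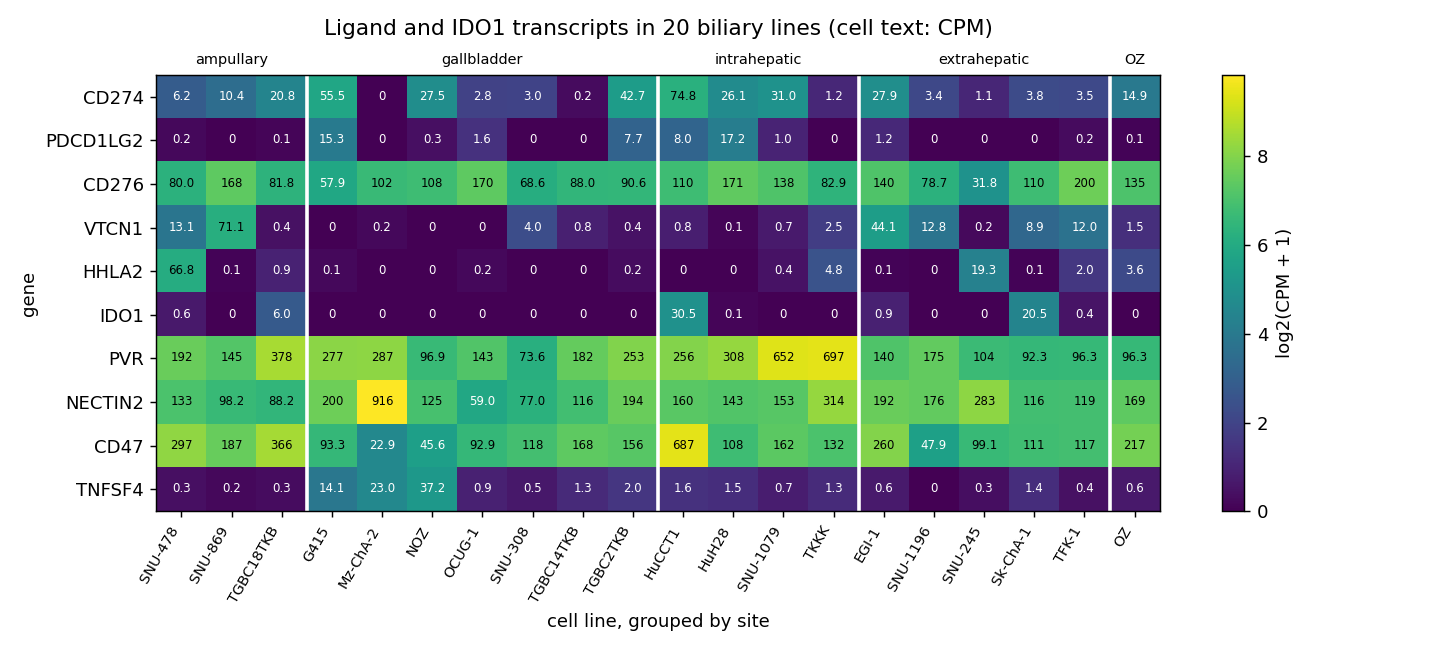
Level of each of the 10 genes (rows) in each of the 20 lines (columns, grouped by site); colour is log2(CPM + 1) and the number in each cell is the CPM. PVR, NECTIN2, CD47 and CD276 are filled in every column, while IDO1 is at 0 in 13 lines and in all 7 gallbladder lines.

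CD274, the main PD-1 ligand of tumour cells, was detected in 19 of the 20 lines and at 10 CPM or more in 10. HuCCT1 was highest at 74.8 CPM (interval 70.0 to 79.9), then G415 at 55.5 and TGBC2TKB at 42.7 CPM. SNU-1079 (31.0), EGI-1 (27.9), NOZ (27.5), HuH28 (26.1) and TGBC18TKB (20.8 CPM) followed closely, so that EGI-1 and NOZ did not differ beyond counting error. The low end was TKKK at 1.16, SNU-245 at 1.08 and TGBC14TKB at 0.21 CPM, and Mz-ChA-2 had no count. High and low lines occurred within the same site, and all 4 sites overlapped.

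PDCD1LG2, the other PD-1 ligand, was at least 1 CPM in 6 lines and at 0 in 8. Its values were 17.2 CPM in HuH28, 15.3 in G415, 8.02 in HuCCT1, 7.73 in TGBC2TKB, 1.63 in OCUG-1 and 1.20 in EGI-1. Each of these 6 lines also had at least 1 CPM of CD274, 5 of them 26 CPM or more. Over the 20 lines the log2 levels of the PD-1 ligands had r = 0.69 and Spearman rho = 0.77, and r = 0.71 without Mz-ChA-2 and TGBC14TKB, the lines farthest from the median of CD274. This was the highest of 45 pairs among the 10 genes. The values share their libraries, and they are given as a description. SNU-1079 and NOZ went apart from it, with 31.0 and 27.5 CPM of CD274 against 0.986 and 0.314 CPM of PDCD1LG2.

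CD274 and PDCD1LG2 are neighbours on chromosome 9, between PLGRKT, a plasminogen receptor gene, and RIC1. Mz-ChA-2 had a count of 0 for both ligands and the lowest PLGRKT of all lines, 1.71 CPM from 22 counts, where the other 19 lines ran from 4.30 to 34.0 CPM. On the other side, RIC1 was at 58.3 CPM in Mz-ChA-2 and at 13.2 to 64.9 CPM in the others, and ERMP1 at 108 against 30.3 to 376 CPM. Upstream of PLGRKT, JAK2, a kinase of the interferon gamma receptor, was at 10.4 CPM in Mz-ChA-2 and at 1.96 to 34.3 CPM in the others. Mz-ChA-2 was thus under the range of the other lines at PLGRKT and CD274 and within it at RIC1, ERMP1 and JAK2, while PDCD1LG2 was also at 0 in 7 other lines. JAK2 and the further genes plotted were chosen after their values were seen, and DNA copy number was not analysed here. Across the 20 lines CD274 had r = 0.80 with PLGRKT and 0.43 with RIC1. The r with PLGRKT includes Mz-ChA-2, the lowest line for both genes, and was not obtained without it.

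**Figure D2:**
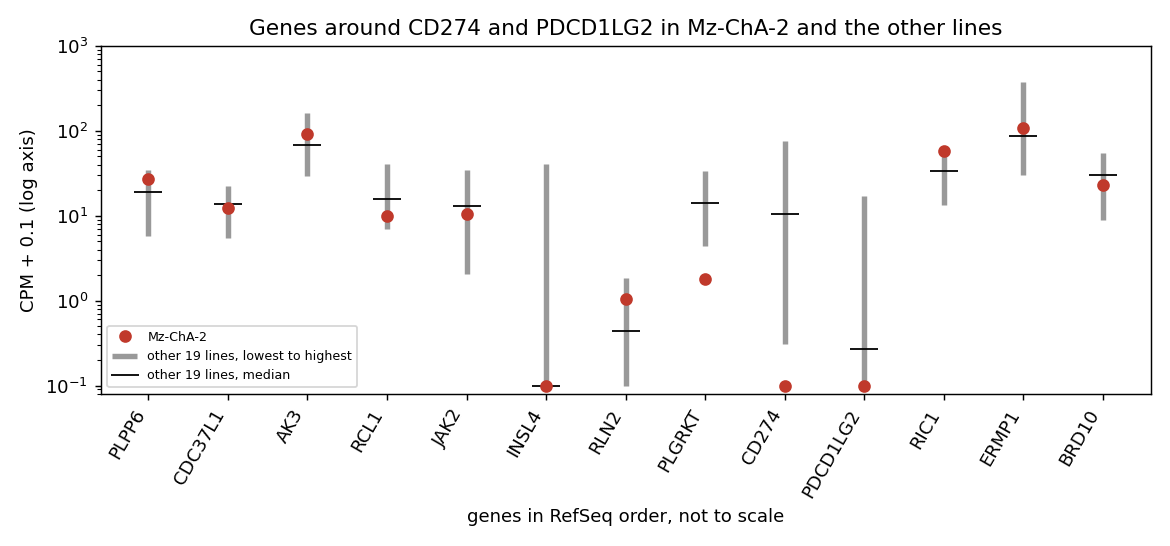
Genes around CD274 and PDCD1LG2 in chromosomal order (horizontal axis, not to scale, genes of at least 1 CPM in some other line) and CPM + 0.1 on a log axis; red points are Mz-ChA-2, grey bars run from the lowest to the highest of the other 19 lines, and black ticks are their median. Mz-ChA-2 lies under the bar at PLGRKT and CD274 and within it at JAK2, RIC1 and ERMP1.

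CD276, a B7 family inhibitor of T cells found on many carcinomas, varied least. It ran from 31.8 CPM in SNU-245 to 200 CPM in TFK-1, a ratio of 6.27, with a mean of 111 ± 43.4 CPM (SD, n = 20). HuH28 (171), OCUG-1 (170) and SNU-869 (168 CPM) were close behind TFK-1.

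VTCN1, a T cell inhibitor of the B7 family typical of glandular epithelium, was at least 1 CPM in 9 lines. The table lists it under the identifier of a non-coding transcript of its gene, and which of the gene's transcripts its count covers is not given in the sources used here. SNU-869 had 71.1 CPM and EGI-1 44.1 CPM. SNU-478, SNU-1196 and TFK-1 lay together at 13.1, 12.8 and 12.0 CPM and were not separated beyond counting error, followed by Sk-ChA-1 at 8.88 CPM. SNU-308 (3.97), TKKK (2.48) and OZ (1.49 CPM) were the remaining lines above 1 CPM. G415, NOZ and OCUG-1 had no count.

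HHLA2, a B7 family ligand of TMIGD2 and KIR3DL3, was carried by few lines. SNU-478 had 66.8 CPM, SNU-245 19.3, TKKK 4.80, OZ 3.57 and TFK-1 2.05 CPM. The other 15 lines were under 1 CPM, and 7 of them had no count. Its neighbour on one side, IFT57, was at 7.29 to 65.7 CPM in all lines and had r = 0.15 with it.

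PVR was at 73.6 to 697 CPM and NECTIN2 at 59.0 to 916 CPM, and both were present in every line. PVR was highest in the intrahepatic lines TKKK (697), SNU-1079 (652) and, behind the ampullary line TGBC18TKB (378), HuH28 (308 CPM). It was lowest in SNU-308 (73.6), Sk-ChA-1 (92.3), TFK-1 (96.3) and OZ (96.3 CPM). NECTIN2 was set apart by Mz-ChA-2, at 916 CPM (interval 900 to 933), where TKKK was next at 314 and SNU-245 at 283 CPM and OCUG-1 lowest at 59.0 CPM. BCAM, a laminin receptor gene that lies next to NECTIN2 on chromosome 19, was also highest in Mz-ChA-2 at 1351 CPM, with a median of 195 CPM over the lines. CBLC, the next gene beyond BCAM, was at 0.622 CPM in Mz-ChA-2 (median 22.4 CPM), and TOMM40 was at 130 CPM there and at 37.8 to 200 CPM over all lines. PVR and NECTIN2, on the same chromosome, had r = 0.35 with each other.

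CD47, which signals to macrophages not to engulf a cell, was highest in HuCCT1 at 687 CPM (interval 672 to 702). TGBC18TKB (366), SNU-478 (297) and EGI-1 (260 CPM) followed. NOZ (45.6) and SNU-1196 (47.9 CPM) did not differ beyond counting error, and Mz-ChA-2 was lowest at 22.9 CPM, a ratio of 30.0 between the highest and the lowest line. HuCCT1 was thus the highest line for CD274, CD47 and IDO1, and Mz-ChA-2 the lowest for CD274 and CD47 while highest for NECTIN2.

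TNFSF4, which costimulates T cells through OX40, stood out in 3 gallbladder lines. NOZ had 37.2 CPM (interval 34.0 to 40.7), Mz-ChA-2 23.0 and G415 14.1 CPM. The next line, TGBC2TKB, had 1.97 CPM, and 11 lines were below 1 CPM. These 3 lines held 84.3% of all CPM of TNFSF4. All of them are labelled as metastatic, and the other metastatic gallbladder line, OCUG-1, had 0.855 CPM.

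IDO1 had a count in 7 lines and was above 1 CPM in 3. HuCCT1 had 30.5 CPM (interval 27.5 to 33.9), Sk-ChA-1 20.5 (18.2 to 23.1) and TGBC18TKB 5.95 CPM (4.60 to 7.57). EGI-1 (0.876), SNU-478 (0.591), TFK-1 (0.425) and HuH28 (0.0856 CPM) had low counts and the remaining 13 lines none. IDO2 was at most 0.0902 CPM, and TDO2, another enzyme that opens the pathway, was at least 1 CPM in 2 lines and highest in TGBC2TKB at 4.85 CPM. Later steps were more widely present: KYNU had a median of 29.7 CPM and 524 CPM in TFK-1, KMO a median of 18.1 and 195 CPM in Sk-ChA-1, and the receptor AHR was at 14.3 to 662 CPM in every line.

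The level of each gene was compared between sites with edgeR's quasi-likelihood test over 16615 genes, and a gene was called at a Benjamini-Hochberg adjusted p under 0.05. None of the 10 genes was called. The background was almost as sparse: the joint test of the 4 sites called 0.00602% of genes (1 gene, with 1771 at an unadjusted p under 0.05), the contrast of ampullary lines with the mean of the other 3 sites 0.00602% (1 gene, 873 unadjusted), and the gallbladder, intrahepatic and extrahepatic contrasts 0% each (2051, 1574 and 1164 unadjusted). The gene-wise values below therefore did not pass the adjustment, and sizes are log2 differences with their SE. DESeq2 on the same counts called TNFSF4, PVR and VTCN1 in the joint test (adjusted p = 0.00149, 0.0137 and 0.0459), where it called 1.88% of genes (312), and no other of the 10, and gave HHLA2 and IDO1 no adjusted p in the gallbladder contrast.

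In gallbladder lines TNFSF4 had a lowest, median and highest value of 0.548, 1.97 and 37.2 CPM (mean 11.3 ± 14.3, SD, n = 7). In the intrahepatic lines it was at 1.62, 1.46, 0.739 and 1.32 CPM, in the extrahepatic lines at 0.637, 0, 0.294, 1.42 and 0.354 CPM, and in the ampullary lines at 0.338, 0.158 and 0.27 CPM. The gallbladder lines overlapped with the bile duct lines. The lowest gallbladder value was 0.548 CPM in SNU-308 (interval 0.237 to 1.08). Its interval overlapped that of the highest ampullary value, 0.338 CPM in SNU-478 (0.0921 to 0.865). The fitted log2 difference was 4.28 ± 0.88 (SE; unadjusted p = 0.000128; adjusted p = 0.152 by edgeR and 2.07e-05 by DESeq2, which called 2.30% of genes). With origin as a covariate it was 2.27 (adjusted p = 0.41).

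PVR was at 256 (HuCCT1), 308 (HuH28), 652 (SNU-1079) and 697 CPM (TKKK) in the intrahepatic lines (mean 479 ± 228, SD, n = 4). In the extrahepatic lines it was at 140, 175, 104, 92.3 and 96.3 CPM (mean 122 ± 35.2, n = 5), in the ampullary lines at 192, 145 and 378 CPM (mean 238 ± 124, n = 3), and in the gallbladder lines at 73.6, 182 and 287 CPM (lowest, median, highest; mean 187 ± 86.8, n = 7). All 4 intrahepatic values lay above all 5 extrahepatic ones and overlapped with the other 2 sites. How many of all genes separate these lines in the same way was not counted. In the intrahepatic contrast 9.47% of all genes had an unadjusted p under 0.05 by edgeR. The intrahepatic contrast had a log2 difference of 1.48 ± 0.35 (SE; unadjusted p = 0.000607; adjusted p = 0.151 by edgeR and 0.0191 by DESeq2, which called 1.61% of genes). For the extrahepatic lines it was -1.20 ± 0.38 (adjusted p = 0.517 by edgeR).

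VTCN1 had 71.1, 13.1 and 0.361 CPM in the ampullary lines and 44.1, 12.8, 0.196, 8.88 and 12.0 CPM in the extrahepatic lines. In gallbladder lines it was at 0, 0.156 and 3.97 CPM (lowest, median, highest) and in intrahepatic lines at 0.768, 0.0856, 0.657 and 2.48 CPM. The sites overlapped through TGBC18TKB and SNU-245. The log2 differences were 3.56 ± 1.22 for ampullary lines, 2.49 ± 1.16 for extrahepatic lines and -3.29 ± 1.30 for gallbladder lines (edgeR adjusted p = 0.902, 0.705 and 0.32). The ampullary difference was 1.54 without SNU-869, the extrahepatic one 1.59 without EGI-1 and 0.73 with repository as a covariate, and the gallbladder one -4.95 without SNU-308. HHLA2 was under 0.25 CPM in all 7 gallbladder lines (log2 difference -5.84 ± 1.89, edgeR adjusted p = 0.255) and passed the filter on low counts only through the other sites. Its ampullary log2 difference of 4.79 ± 1.51 was -0.67 without SNU-478.

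IDO1 had no count in any of the 7 gallbladder lines, against 5 of the other 12 lines with a single site. It passed the filter on low counts only through the other sites, and HuCCT1, Sk-ChA-1 and TGBC18TKB held 96.6% of its CPM. The gallbladder contrast (unadjusted p = 0.00861, adjusted p = 0.264 by edgeR) is therefore given as a description only. The intrahepatic log2 difference of IDO1, 4.07 ± 1.81, was -3.56 without HuCCT1 and 1.10 with origin as a covariate. CD47 was at 22.9, 93.3 and 168 CPM in gallbladder lines (lowest, median, highest), with a log2 difference of -1.10 ± 0.46 that did not pass (edgeR adjusted p = 0.346). PDCD1LG2 had a log2 difference of 3.83 ± 1.53 in intrahepatic lines (edgeR adjusted p = 0.407). CD274 and CD276 showed no unadjusted p under 0.2 in any site contrast, and NECTIN2 none under 0.1.

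**Figure D3:**
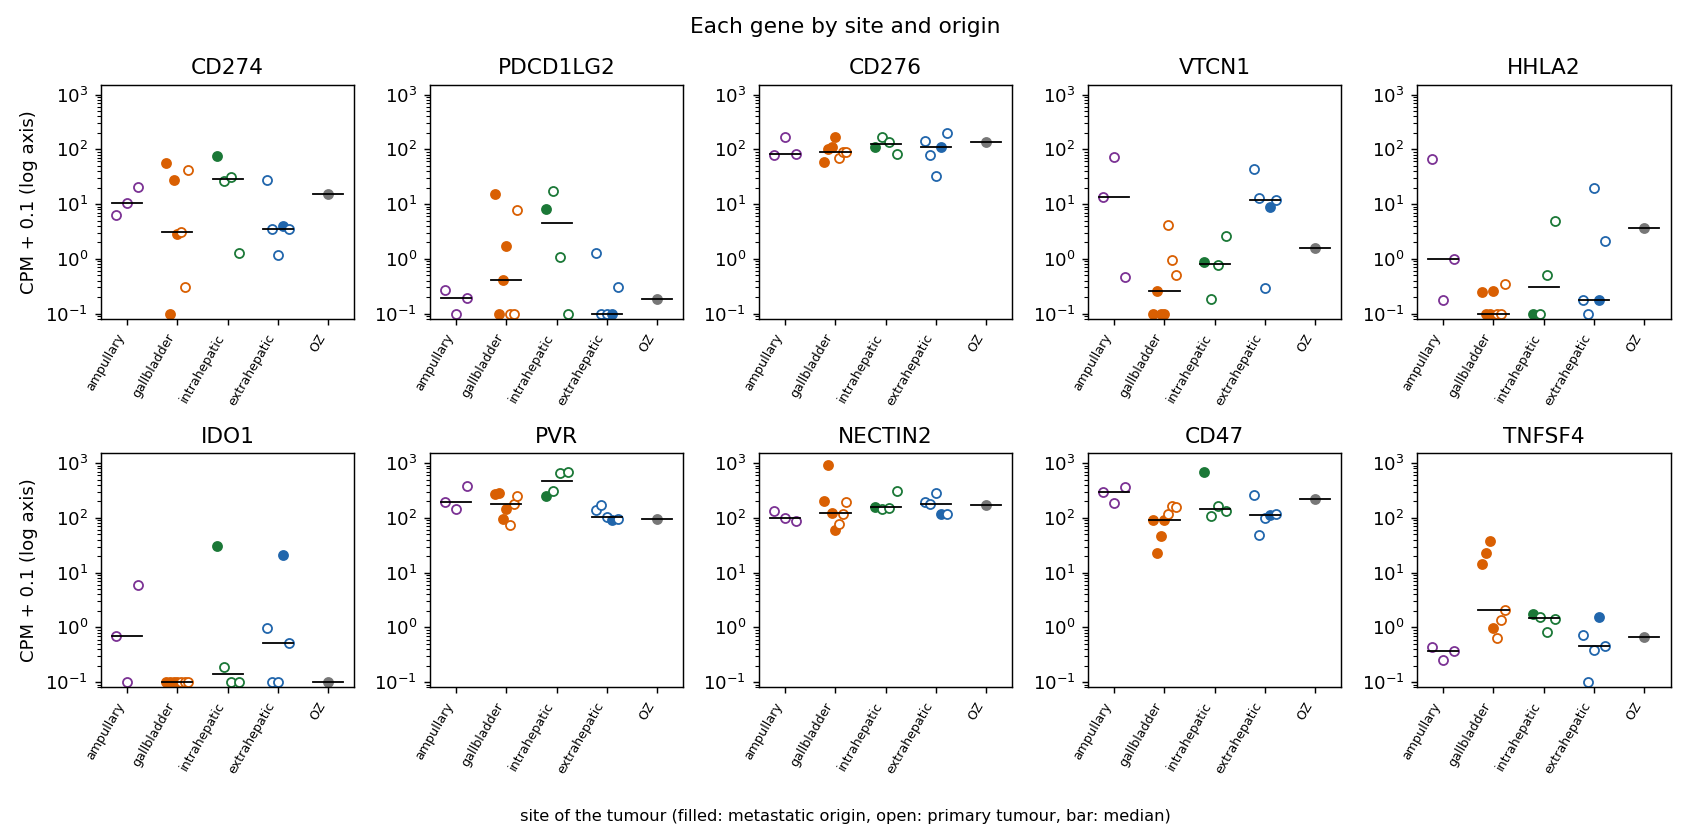
Each of the 10 genes by site of the tumour (horizontal axis) as CPM + 0.1 on a log axis, 1 point per line, filled for metastatic origin and open for primary tumour, with a bar at the median. The 3 highest TNFSF4 values are filled gallbladder points (14.1, 23.0 and 37.2 CPM), and IDO1 lies at 0 in all 7 gallbladder lines. PVR runs from 256 to 697 CPM in intrahepatic lines and from 92.3 to 175 CPM in extrahepatic lines.

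The 7 metastatic lines were compared with the 13 primary lines over 14843 genes, of which 8 of the 10 genes were part, since HHLA2 and IDO1 did not pass the filter on low counts. None was called by edgeR, where 0% of all genes were called (1147 at an unadjusted p under 0.05), and DESeq2 called 1.22% (181). TNFSF4 was at 0.581, 1.62 and 37.2 CPM in metastatic lines and at 0, 0.548 and 1.97 CPM in primary lines (lowest, median, highest). The log2 difference was 3.93 ± 0.80 (SE; unadjusted p = 7.7e-05; adjusted p = 0.23 by edgeR, 0.000279 by DESeq2), the groups overlapped, and the difference rests on NOZ, Mz-ChA-2 and G415. With site as a covariate it was 2.84 (adjusted p = 0.431). VTCN1 was at 0, 0.156 and 8.88 CPM in metastatic lines, against 0.0856, 2.48 and 71.1 CPM in primary lines, a log2 difference of -2.94 ± 1.47 (edgeR adjusted p = 0.651). CD274 was at 0, 14.9 and 74.8 CPM in metastatic lines and at 0.21, 6.25 and 42.7 CPM in primary lines. Its log2 difference was 0.89 ± 0.93 (edgeR adjusted p = 0.86), 0.34 without HuCCT1 and -0.04 with the supplying repository as a covariate. The KCLB and DSMZ lines were all primary and the Zurich lines all metastatic. Repository and origin are thus partly confounded, and the covariate cannot fully separate them.

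Origin was then examined within gallbladder lines and within bile duct lines (intrahepatic, extrahepatic and OZ), since ampullary lines were all primary. Within the gallbladder 0.00607% of 16464 genes were called (1 gene, 1410 unadjusted), within the bile duct 0% (723 unadjusted), and for the difference of these effects 0% (839 unadjusted); none of the 10 genes was among them. Within the gallbladder TNFSF4 was at 14.1, 23.0, 37.2 and 0.855 CPM in metastatic lines and at 0.548, 1.26 and 1.97 CPM in primary lines (log2 difference 3.86 ± 1.33, adjusted p = 0.487 by edgeR and 0.0182 by DESeq2, which called 2.11% of genes). VTCN1 was at 0, 0.156, 0 and 0 CPM in the same metastatic lines, against 3.97, 0.84 and 0.411 CPM in the primary lines (log2 difference -5.18 ± 1.96, edgeR adjusted p = 0.503). The counting intervals of Mz-ChA-2 (0.0188 to 0.562 CPM) and TGBC2TKB (0.133 to 0.959 CPM) overlapped. For CD47 the signs of the effects were opposite. In gallbladder lines it was at 93.3, 22.9, 45.6 and 92.9 CPM in metastatic lines and at 118, 168 and 156 CPM in primary lines. How many of all genes separate these lines in the same way was not counted. In bile duct lines CD47 was at 687 (HuCCT1), 217 (OZ) and 111 CPM (Sk-ChA-1) in metastatic lines (mean 338 ± 306, SD). The 7 primary bile duct lines ran from 47.9 to 260 CPM (mean 132 ± 66.2), a range that held OZ and Sk-ChA-1. The bile duct log2 difference was 1.33 ± 0.54, 0.29 without HuCCT1 and 0.78 with repository as a covariate (edgeR adjusted p = 1 each). The difference of the CD47 effects was -2.55 ± 0.83 on the log2 scale (unadjusted p = 0.00727, edgeR adjusted p = 0.952), and -1.50 without HuCCT1. IDO1 was at 30.5, 20.5 and 0 CPM in the metastatic bile duct lines and at most 0.876 CPM in the 7 primary ones. It was at 0 in all gallbladder lines and passed the filter on low counts only through bile duct lines, with HuCCT1 and Sk-ChA-1 highest. Its bile duct contrast (unadjusted p = 0.00582, edgeR adjusted p = 1) is therefore given as a description only.

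Of the supplying repositories, KCLB and RIKEN gave 6 lines each, HSRRB 4, and DSMZ and Zurich 2 each. The labels name no sequencing batch. A joint test of repository called 0.115% of 17390 genes (20 genes) and none of the 10; the smallest unadjusted p were those of TNFSF4 (0.014), VTCN1 (0.0149), IDO1 (0.0274) and NECTIN2 (0.0316; edgeR adjusted p = 0.398 to 0.482). DESeq2 called 1.87% of genes by repository, VTCN1 among them (adjusted p = 0.0484). VTCN1 had a median of 8.37 CPM in the KCLB lines and 0.589 CPM in the RIKEN lines.

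The lines differ widely in how epithelial they are, so each gene was set against a score, the mean level of 17 epithelial genes minus that of 17 mesenchymal genes, each as log2 CPM centred on its mean over the lines. Its lowest value was -12.09 (HuH28) and its highest 5.36 (SNU-245). Along it 7.91% of 16639 genes were called (553 rising and 763 falling towards the epithelial end). Of the 10 genes, 1 was called, VTCN1, with a slope of 0.56 ± 0.16 log2 units per unit of score (SE, edgeR adjusted p = 0.0385), a share close to the background. In the 6 lines with at least 8 CPM of VTCN1 the score was above 1.9, except in Sk-ChA-1 (-1.38). SNU-245, at the epithelial end, had 0.196 CPM. TGBC18TKB, TGBC14TKB, OZ, TKKK and SNU-308 also scored above 1.9, with 0.361, 0.84, 1.49, 2.48 and 3.97 CPM of VTCN1. The call was lost with repository as a covariate (0.35, adjusted p = 0.15), and on leaving out EGI-1, G415, HuH28, Mz-ChA-2, OCUG-1, SNU-1079, SNU-869 or TGBC2TKB, with adjusted p of 0.056 to 0.0995. The slope was 0.49 to 0.64 over the 20 fits without 1 line. The r of VTCN1 with the score was 0.58 over 20 lines (rho 0.60), 0.21 within the 6 KCLB lines and 0.70 within the 6 RIKEN lines.

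TNFSF4 and PDCD1LG2 ran the other way, with slopes of -0.50 ± 0.15 and -0.45 ± 0.14, and did not pass (edgeR adjusted p = 0.0526 and 0.0557). TNFSF4 passed without HuH28 and TGBC2TKB (slope -0.64, edgeR adjusted p = 0.0206), and on leaving out HuH28, NOZ, OCUG-1, SNU-1079 or TGBC2TKB alone (adjusted p 0.0279 to 0.0448). Without each of the other 15 lines it did not pass, up to 0.0989, with slopes of -0.59 to -0.39 over the 20 fits, and with repository as a covariate its slope was -0.32 (adjusted p = 0.24). PDCD1LG2 passed without EGI-1, HuCCT1 or Mz-ChA-2 (0.0114 to 0.0484) and not without any other line (up to 0.142, slopes of -0.54 to -0.38 over the 20 fits), nor with repository as a covariate (-0.49, 0.0951) or without HuH28 and TGBC2TKB (-0.52, 0.189). HHLA2 passed without SNU-478 (0.0459) and not without any other line (up to 0.275). DESeq2, which called 14.0% of genes along this score (2325), called both (1.66e-05 and 0.0226) and also VTCN1 (0.000128) and HHLA2 (slope 0.64 ± 0.25 by edgeR, adjusted p = 0.128 by edgeR and 0.0053 by DESeq2). For PDCD1LG2 the r with the score was -0.72 over 20 lines and -0.53 without HuH28 and TGBC2TKB, and -0.95 and -0.86 within the KCLB and RIKEN lines. For TNFSF4 it was -0.51 over 20 lines, -0.65 without those lines, and -0.61 and -0.68 within those repositories. The fibroblast marker sum was highest in HuH28, the line with the most PDCD1LG2, and was mostly COL1A1, which is also in the mesenchymal list. Whether fibroblast-like transcripts had a part in that PDCD1LG2 value was not tested. CD274, with a slope of -0.16 ± 0.11, and the other 5 genes had edgeR adjusted p of 0.427 to 0.892. VTCN1 and TNFSF4 had r = -0.60 with each other (rho -0.61).

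The second score was the mean level of 24 interferon gamma targets such as IRF1, GBP1 and TAP1, none of them among the 10 genes. HuCCT1 (1.67), TFK-1 (1.56) and Sk-ChA-1 (1.02) were highest and Mz-ChA-2 lowest (-1.40). Along it edgeR called 0.116% of 15563 genes (17 rising, 1 falling), and none of the 9 of these genes that were tested. IDO1 did not pass the filter on low counts there. Without that filter its slope was 5.02 (edgeR adjusted p = 0.00313), where 0.601% of genes were called. Of the 20 fits without 1 line, it passed the filter only in that without TFK-1, a line of high score and little IDO1. The slope there was 5.38 (edgeR adjusted p = 0.00202, 0.0251% of genes called). IDO1 also passed the filter with repository as a covariate, where its slope was 4.19 and was not called (edgeR adjusted p = 0.2). IDO1 had r = 0.68 and rho = 0.72 with the score over 20 lines, 13 of which had no count, and r = 0.62 without HuCCT1 and TFK-1, and 0.39 and 0.76 within the KCLB and RIKEN lines. TFK-1 had a score near that of HuCCT1 with 0.425 CPM of IDO1, against 30.5 CPM in HuCCT1.

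CD47 had a slope of 0.86 ± 0.21 (unadjusted p = 0.000479; adjusted p = 0.12 by edgeR and 0.00455 by DESeq2, which called 1.82% of genes), and 0.67 without HuCCT1 (edgeR adjusted p = 0.456). Its r was 0.66 over 20 lines and 0.66 without HuCCT1 and TFK-1, and 0.72 and 0.90 within the KCLB and RIKEN lines. With a type I interferon list in place of the interferon gamma list the slope was 0.25 (edgeR adjusted p = 0.339). NECTIN2 and TNFSF4 had slopes of -0.57 ± 0.18 and -1.51 ± 0.46 (edgeR adjusted p = 0.284 and 0.28). The NECTIN2 slope was -0.24 without Mz-ChA-2 (edgeR adjusted p = 0.813), and with the type I list the slopes were -0.20 and -0.50. CD274, the interferon gamma responsive ligand of the shown promoter, had a slope of 0.42 ± 0.49 (edgeR adjusted p = 0.896) and -0.06 without HuCCT1. G415 and NOZ had 55.5 and 27.5 CPM of CD274 with scores of -1.02 and -0.97, while TFK-1 and Sk-ChA-1 had 3.47 and 3.80 CPM with scores above 1.

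**Figure D4:**
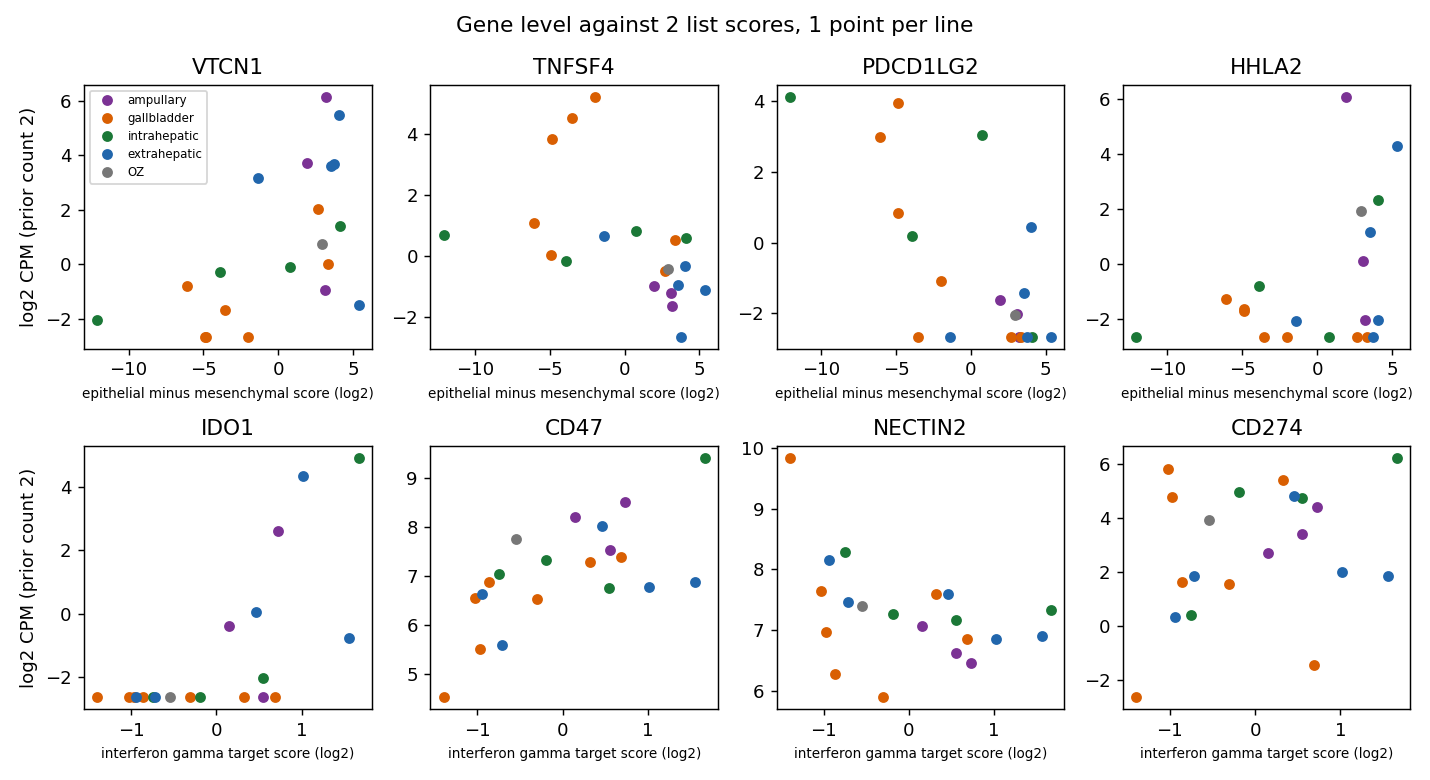
Level of 8 of the 10 genes as log2 CPM with a prior count of 2 (vertical axis) against the epithelial minus mesenchymal score (upper row) and the interferon gamma target score (lower row), 1 point per line, coloured by site (in the panels other than CD47 and NECTIN2, the lowest points are lines with no count). VTCN1 lies higher towards the epithelial end (r = 0.58), PDCD1LG2 and TNFSF4 lower (r = -0.72 and -0.51), and CD274 is spread over the whole range of the interferon gamma score.

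Receptors and partners of these genes, listed together with CD28 and CTLA4, the receptors of CD80 and CD86, were mostly low or absent. Of 12 receptors, PDCD1 was at 0 in 11 lines and at 8.31 CPM in OZ, TIGIT, CTLA4, CD28 and TNFRSF4 reached no more than 0.435 CPM in any line, and KIR3DL3 had a count in 1 line. SIRPA was the exception, at least 1 CPM in 17 lines with a median of 21.0 and 809 CPM in HuH28, as was RGMB, a coreceptor that binds PD-L2, at 9.34 to 92.9 CPM in all lines. Along the epithelial minus mesenchymal score 2 of 4 tested receptors were called, both falling, against 7.91% of all genes: CD96, a receptor of PVR on lymphocytes (slope -0.40 ± 0.07, edgeR adjusted p = 0.00105, 46.2 CPM in HuH28), and RGMB (-0.15 ± 0.03, adjusted p = 0.00582). The median slope of the 4 was -0.20, against 0 over all genes. How these calls depend on HuH28, the line with the lowest score, was not tested.

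Among 25 other checkpoint and costimulatory ligands, 24 were in the table and 20 were tested along that score, where 5 were called, against 7.91% of all genes. NECTIN4, TNFRSF14 and LGALS3 rose towards the epithelial end (slopes 0.61, 0.32 and 0.29, edgeR adjusted p = 0.00186, 0.025 and 0.0253). NECTIN4 is an adhesion molecule that TIGIT also binds, TNFRSF14 the partner of BTLA, and LGALS3 a galectin. CD70, the ligand of CD27, fell (slope -0.79, adjusted p = 0.00103, 165 CPM in HuH28), as did ICAM1, a leukocyte adhesion molecule (-0.36, adjusted p = 0.000436, 2585 CPM in HuH28). The median slope was -0.02. The dependence of these calls on HuH28 was not tested either. None of these ligands was called by site, origin, repository or the interferon gamma score, where LGALS9, the ligand of TIM-3, had the smallest p (slope 1.72, edgeR adjusted p = 0.195). CD80 and CD86, the B7 ligands of CD28, reached 0.0856 and 5.07 CPM at most.

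None of the tested genes was called in any comparison in the list of tryptophan and kynurenine genes (17 of 19 tested in the site fit) or in that of the interferon gamma pathway (14 of 15). In the interferon gamma list the receptor chains IFNGR1 and IFNGR2 were at 18.1 CPM or more in all 20 lines and JAK1 at 41.9 CPM or more, and CIITA was at least 1 CPM in 6. Of 10 regulators of PD-L1 or CD47 protein, CALR, the calreticulin that opposes CD47 signalling, was called along the epithelial minus mesenchymal score (slope -0.12 ± 0.03, edgeR adjusted p = 0.00515), 1 of 10 against 7.91% of all genes, a share near the background. CMTM6, which keeps PD-L1 at the cell surface, was at 94.8 to 461 CPM in all lines, and QPCTL, which modifies CD47 for SIRPA binding, at 10.1 to 142 CPM.

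The 3 genes most like each of the 10 in log2 level over 20 lines, by Pearson r among 16337 expressed genes, are given as a description. CD274 was followed by KRTAP2-3 (0.84), CATSPER1 and PLK2 (0.82 each). For PDCD1LG2 they were ALPK2 (0.91), COL8A1 (0.88) and SPANXD (0.86), all highest in HuH28. IDO1 went with ZBP1 (0.83), INSC (0.82) and GBP4 (0.80), of which GBP4 is in the interferon gamma list. CD47 went with LAMB3 (0.83), TMEM9B (0.82) and COL16A1 (0.80), and HHLA2 with RNF186 (0.91), PBLD and CEACAM7 (0.86 each). VTCN1 went with PPP1R14C (0.79), CD164L2 (0.74) and TTC22 (0.72), and TNFSF4 with SCUBE3 (0.83), RIC8B (0.80) and GLUD1P3 (0.79). CD276 went with SAFB2 (0.83), UBASH3B (0.73) and PHTF1 (0.72), PVR with CSF1R (0.81, at most 2.13 CPM), FLCN (0.77) and LINC01622 (0.76), and NECTIN2 with QRICH2 (0.83), CLASRP (0.81) and TBC1D12 (0.80), all highest in Mz-ChA-2.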

How the data were processed

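RNA was measured in 20 lines with 1 library each. The deposited table holds whole-number read counts per gene, not normalized by the authors, per the file's values. Per the labels, libraries were stranded and mRNA-selected; per the submitters' processing notes, Trimmomatic, TopHat2 2.0.8, Picard 1.69 and featureCounts were used with GRCh37 (hg19). Because the sources used here do not give the strand setting, reads of overlapping genes may be shared. Of 24222 entries, 23512 were named from a RefSeq gene table and 355 from GENCODE metadata; the 355 others held 0.484% of counts. RefSeq (GRCh38.p14) served for names, gene order and promoter sequences only. VSIG4, IFNG and AIF1 were not analysed here, and 1 neighbour of NECTIN2 is not reported here.

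Counts were tested with edgeR 4.0.16 under R 4.3.3, by a robust quasi-likelihood fit after TMM scaling and filterByExpr; tests were two-sided, with p adjusted over all genes tested. Score fits left out the genes of the list. Scores are means of log2 CPM (prior count 2) centred per gene. r and rho are Pearson and Spearman coefficients. Merged exon lengths come from GENCODE. Alternatives were DESeq2 1.42.0, RLE scaling, no count filter, covariates (repository, with DSMZ and Zurich merged, origin or site), OZ assigned to either site, another interferon list, a prior count of 0.5, the 2 lines farthest on a score left out, and fits without each line in turn. The procedure was run on simulated counts with the same dispersion for all genes and changes only in well expressed genes. That run does not show how it performs on genes as low or as variable as several of these. The 10 genes, the lists and the tests were chosen with earlier results of these data known. Named are all 10 genes, the 3 genes most like each, their 2 nearest genes on each side where the text turns on them, list genes called or of smallest p, and the receptors. Replicate numbers follow accession order and pair no lines.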

Additional observations from a re-analysis of the deposited data

Results flagged for a closer look

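In a group of 4 to 7 lines of a site, a value was picked out when its gap to the nearest line exceeded Dixon's critical share of the group's range on the log2 scale. Of 30 groups (10 genes in 3 sites) 2 were picked out, where chance picks out about 1 in 20. IDO1 in HuCCT1 was at 30.5 CPM, and the other intrahepatic lines were at 0.0856, 0 and 0 CPM. NECTIN2 in TKKK was at 314 CPM, and the other intrahepatic lines were at 160, 143 and 153 CPM. The gallbladder NECTIN2 value of Mz-ChA-2, 916 CPM, did not exceed the critical share.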

How the results depend on the processing

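No paired analysis was possible because replicate numbers follow accession order only. DESeq2 called more genes than edgeR: 312 in the joint site test, 133 in the ampullary, 382 in the gallbladder, 267 in the intrahepatic and 188 in the extrahepatic contrast, 181 by origin, 347 by origin within the gallbladder and 180 within the bile duct, 120 for their difference, 326 by repository, 284 along the interferon gamma score and 2325 along the epithelial minus mesenchymal score. Of the 10 genes it called 3 in the joint site test, 1 each in the gallbladder, intrahepatic, origin, within-gallbladder, repository and interferon gamma fits, and 4 along the epithelial minus mesenchymal score. With repository as a covariate, 0 genes were called in the joint site, ampullary, within-gallbladder and interferon gamma fits, and 761 along the epithelial minus mesenchymal score, with 0 of the 10. With origin as a covariate the counts were 0 in the joint site test, 0 for ampullary and 4 for gallbladder lines. The ampullary count was 4 with OZ taken as intrahepatic and 2 as extrahepatic. Along the interferon gamma score it was 10 with RLE scaling, 10 with a prior count of 0.5, 31 with the type I list, 3 without HuCCT1 and TFK-1, and 133 without the count filter, then with 1 of the 10 (IDO1). Along the epithelial minus mesenchymal score it was 2063 without the filter, VTCN1 and TNFSF4 among them (edgeR adjusted p = 0.0318 and 0.0476). It was 410 without HuH28 and TGBC2TKB. With a prior count of 0.5, VTCN1 and PDCD1LG2 passed (edgeR adjusted p = 0.0388 and 0.0499). With 1 line left out, counts ran from 0 to 2 (joint site), 1 to 11 (ampullary), 0 to 3 (gallbladder), 0 to 7 (intrahepatic), 0 to 1 (extrahepatic), 0 to 1 (origin), 0 to 2 (within gallbladder), 0 to 2 (within bile duct), 0 to 1 (their difference), 1 to 58 (repository), 4 to 29 (interferon gamma, 0 to 1 of the 10) and 497 to 1355 (epithelial minus mesenchymal, 0 to 2 of the 10).

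Gene results followed up here were those with an unadjusted p under 0.05 in an edgeR contrast or slope fit. CD274 by origin and along both scores, and PDCD1LG2 along the interferon gamma score, were added. Only VTCN1 along the epithelial minus mesenchymal score passed in its main fit (edgeR adjusted p = 0.0385). Keeping the side of the threshold therefore mostly meant staying uncalled. Left out were 4 DESeq2 values of HHLA2 and IDO1 by site that had no adjusted p. Of 189 values of these 31 gene results under the other settings, 174 kept direction and side of the threshold. A further 11 passed it newly, 2 no longer passed and 2 changed sign. The sign changes were in CD274 by origin with repository as a covariate (-0.04) and in PDCD1LG2 along the type I interferon list (-0.26). With 1 line left out, 571 of 591 kept both, 9 passed newly, 8 no longer passed and 3 changed sign: IDO1 in intrahepatic lines (-3.56 without HuCCT1, up to 5.30 without Sk-ChA-1), HHLA2 in ampullary lines (-0.67 without SNU-478, up to 5.88 without TKKK) and CD274 along the interferon gamma score (-0.06 without HuCCT1, up to 0.91 without G415). The cause was not tested. VTCN1 along the epithelial minus mesenchymal score was 0.69 (edgeR adjusted p = 0.139) without HuH28 and TGBC2TKB. Values under about 0.3 CPM rest on 3 counts or fewer, so order among such lines is not resolved at this depth.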
